A study of Mus musculus with 8 samples.

Results

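Interferon-stimulated genes are switched on when type I or type II interferon binds its receptor, and 49 of them were measured in haematopoietic stem cells from mouse bone marrow. They were chosen as a list of symbols for interferon receptors, signalling factors, antiviral effectors and immunoproteasome subunits, with the IRG and GBP GTPases and the MHC genes left out, and all 49 were found among 33641 symbols. The RNA came from sorted stem cells of C57BL/6 mice with 4 genotypes, and 8 libraries were made, 2 for each genotype. The genotypes, as labelled, were Scribble-/-, called Scribble null here, Taz-/-;Yap1-/-, called Yap1 Taz null, Scribble-/-;Taz-/-;Yap1-/-, called triple null, and wild type. Scribble is a polarity scaffold, and Yap1 and Taz are co-activators held back by the Hippo kinases.

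All groups share the interferon-inducing treatment. Mx1-Cre was carried in every group, wild type included, and polyI:C was given to all of them into the peritoneum on alternate days, as 6 doses of 10 mg/kg. Cells were taken 1 week after induction. PolyI:C imitates viral double-stranded RNA and triggers interferon release, and Mx1-Cre is a recombinase driven by an interferon-responsive promoter. No group without polyI:C was analysed here, so the levels are levels after polyI:C and no induction by it can be given. Mx1-Cre is active in many interferon-responsive tissues, so deletion is not limited to stem cells. The labels give neither the age of the mice nor how many mice went into a library, and p-values measure only the spread between libraries, which may be technical.

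Type I interferons bind IFNAR1 and IFNAR2, and the kinases JAK1 and TYK2 then pass the signal to a complex with STAT2 and IRF9 that binds the interferon-stimulated response element, or ISRE. Type II interferon binds IFNGR1 and IFNGR2, and its targets are known for the gamma-activated site, or GAS. The products block viral entry, sense or degrade viral RNA, attach ISG15 to proteins and adapt the proteasome for antigen processing. In stem cells of the marrow, interferon is known to drive quiescent cells into division for a short time.

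Promoter windows were searched for both elements, from 250 bases before to 50 bases after each annotated start in RefSeq (build GRCm38.p6). The ISRE was searched on both strands as GAAA followed by NN, any pair of bases, and GAAA again, with overlapping matches counted separately, and the GAS as TTCNNNGAA, which is its own reverse complement. An entry was found for 39 of the 49 members, in 47 windows. At least 1 ISRE match was present for 14 of the 39 members (35.9%), against 3.99% of 27025 genes. For the GAS motif the numbers were 13 of 39 members (33.3%), against 9.55% of genes. Both motifs were found for 5 members (Bst2, Eif2ak2, Ifitm3, Irf2 and Oas1a) and neither for 17. A match is a description of letters, not of binding, and genes with several annotated starts had more windows to match in. The windows below run 5′ to 3′ on the strand of the gene, and capitals mark the matched letters. Isg15 and Ifit1 are shown for their ISRE matches and Ifitm3 for both motifs.
Isg15, chr4:156200769-156201068, minus strand, 3 overlapping ISRE matches: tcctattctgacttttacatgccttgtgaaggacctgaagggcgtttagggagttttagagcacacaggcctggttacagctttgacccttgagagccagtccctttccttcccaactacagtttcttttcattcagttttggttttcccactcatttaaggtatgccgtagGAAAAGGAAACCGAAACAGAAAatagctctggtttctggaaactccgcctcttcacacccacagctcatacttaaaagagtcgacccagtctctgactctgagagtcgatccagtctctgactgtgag
Ifit1, chr19:34640639-34640938, plus strand, 2 ISRE matches read on the opposite strand: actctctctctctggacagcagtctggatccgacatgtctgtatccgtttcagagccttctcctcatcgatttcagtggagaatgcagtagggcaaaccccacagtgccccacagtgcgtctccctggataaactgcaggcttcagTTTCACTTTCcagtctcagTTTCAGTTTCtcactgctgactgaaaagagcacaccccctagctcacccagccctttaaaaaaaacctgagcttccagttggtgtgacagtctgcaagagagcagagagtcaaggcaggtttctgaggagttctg
Ifitm3, chr7:141010695-141010994, minus strand, 2 ISRE matches and 1 GAS match that overlaps an ISRE match: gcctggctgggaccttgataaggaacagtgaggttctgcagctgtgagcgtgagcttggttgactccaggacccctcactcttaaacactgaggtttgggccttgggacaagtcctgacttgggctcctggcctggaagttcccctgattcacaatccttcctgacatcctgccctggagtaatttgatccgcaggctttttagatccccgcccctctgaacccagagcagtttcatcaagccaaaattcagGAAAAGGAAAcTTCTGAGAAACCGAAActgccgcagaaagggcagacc

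The next windows hold a GAS match. They belong to the first of 2 annotated starts of Irf1, which encodes a transcription factor known to be induced early by interferon, to Psmb8, and to the first of 3 annotated starts of Isg20.
Irf1, chr11:53769764-53770063, plus strand: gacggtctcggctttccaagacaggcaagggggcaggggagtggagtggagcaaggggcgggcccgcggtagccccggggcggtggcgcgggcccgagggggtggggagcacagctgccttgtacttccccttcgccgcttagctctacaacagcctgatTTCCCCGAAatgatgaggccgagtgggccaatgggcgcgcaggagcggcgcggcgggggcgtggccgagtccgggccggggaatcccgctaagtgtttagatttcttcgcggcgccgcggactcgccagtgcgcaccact
Psmb8, chr17:34197945-34198244, plus strand: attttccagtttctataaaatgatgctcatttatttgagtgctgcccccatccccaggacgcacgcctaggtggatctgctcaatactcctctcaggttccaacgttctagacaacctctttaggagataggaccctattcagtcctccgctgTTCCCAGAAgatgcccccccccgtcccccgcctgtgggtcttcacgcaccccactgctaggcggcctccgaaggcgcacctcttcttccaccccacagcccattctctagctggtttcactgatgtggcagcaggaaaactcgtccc
Isg20, chr7:78913174-78913473, plus strand: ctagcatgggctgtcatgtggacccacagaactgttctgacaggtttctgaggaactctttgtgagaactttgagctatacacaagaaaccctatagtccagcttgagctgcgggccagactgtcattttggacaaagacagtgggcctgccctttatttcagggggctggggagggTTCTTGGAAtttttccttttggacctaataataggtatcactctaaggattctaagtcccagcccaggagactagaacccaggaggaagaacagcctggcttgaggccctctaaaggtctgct

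The last windows belong to members that differed between genotypes, as given further on, and hold neither motif, so they have no capitals. The Ifitm1 window lies inside the coordinates of the whole gene given further on, so it does not cover the bases before that gene's first base.
Ifitm1, chr7:140967826-140968125, plus strand: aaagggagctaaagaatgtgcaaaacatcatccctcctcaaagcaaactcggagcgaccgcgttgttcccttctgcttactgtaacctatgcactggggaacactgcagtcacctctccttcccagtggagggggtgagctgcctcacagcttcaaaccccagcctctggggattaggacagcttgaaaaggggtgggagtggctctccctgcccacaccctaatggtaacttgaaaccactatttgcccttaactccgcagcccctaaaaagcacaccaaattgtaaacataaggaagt
Psmb10, chr8:105938343-105938642, minus strand: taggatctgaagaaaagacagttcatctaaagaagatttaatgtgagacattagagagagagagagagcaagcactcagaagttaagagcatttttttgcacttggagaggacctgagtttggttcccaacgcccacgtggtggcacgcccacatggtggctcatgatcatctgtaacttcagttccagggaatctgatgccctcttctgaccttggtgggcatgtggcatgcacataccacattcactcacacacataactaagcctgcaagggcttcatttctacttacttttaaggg
Differences between genotypes were set beside the ISRE matches only. In Scribble null against wild type the median log2 difference was -0.11 over the 14 members with an ISRE match and -0.18 over the 25 without. The median over all genes tested was 0.14. The members called by limma were 0 and 2, beside 1.3% of all genes tested. Zbp1, also called in that comparison, had no promoter entry and is in neither set. In Yap1 Taz null against wild type the medians were 0.03 and -0.09, against 0.14 over all genes. In triple null against wild type they were -0.06 and -0.04, against 0.12 over all genes.

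Levels are given as TPM, a transcript abundance corrected for length and scaled to the same total in each library, which keeps no depth, so the sequencing depth is unknown. Between 14024 and 14970 genes reached 1 TPM in a library. All 10 stem cell markers examined, among them Kit, Slamf1, Procr and Hlf, were present in every library. Their summed level was 1757 to 2191 TPM in the 6 null libraries and 1682 and 1709 TPM in wild type, so both wild-type libraries were lowest. Kit stood at 384 to 532 TPM in null and 268 and 281 TPM in wild type libraries, and Mecom at 222 to 243 TPM in null and 159 and 168 TPM in wild type. Not all markers ran this way. Ly6a had 148 to 255 TPM in null and 359 and 417 TPM in wild type libraries. Procr had 61.1 and 70.2 TPM in Yap1 Taz null and 100 and 101 TPM in wild type, and Slamf1 and Fgd5 overlapped wild type. These markers were named after their values were seen, and their part in the results that follow was not tested. The targeted genes did not check the labels. Scrib stood at 6.25 and 7.63 TPM in Scribble null, 14.5 and 7.54 TPM in triple null, and 8.19 and 9.29 TPM in wild type libraries. Yap1 had 2.13 and 6.63 TPM in Yap1 Taz null, 2.25 and 2.37 TPM in triple null, 5.83 and 2.45 TPM in Scribble null and 2.00 and 2.15 TPM in wild type. Wwtr1, which encodes Taz, had 1.09 and 1.15 TPM in Yap1 Taz null, 1.92 and 0.775 TPM in triple null, 5.32 and 3.91 TPM in Scribble null and 0.730 and 1.19 TPM in wild type. Such a level does not show whether a deleted exon is missing, so genotypes are named as labelled. The Y-linked gene Eif2s3y stood at 4.16 and 4.63 TPM in the Yap1 Taz null libraries and between 45.8 and 64.1 TPM in the other 6, so whatever sets that level and the Yap1 Taz null genotype cannot be told apart. Comparisons that do not need those libraries were also fitted without them. Correlation of log2 levels between replicates was 0.953 to 0.965, and the library Scribble null 2 correlated more with triple null 2 (0.958) than with its own replicate (0.953).

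Every member was expressed. All 49 were at or above 1 TPM in all 8 libraries, and all passed the filter of 1 TPM in at least 2 libraries that left 16064 genes for testing. Averaged over the 8 libraries, 11 members exceeded 100 TPM, 31 lay between 10 and 100 TPM and 7 lay under 10 TPM. The median member stood at 35.3 TPM, against 14.1 TPM for all genes tested, and 40 members were above that median. The highest library was 1.79 times the lowest for the median member, with a range from 1.23-fold for Cmpk2 to 4.33-fold for Zbp1. For 14 members replicates of 1 genotype differed by 1.5-fold or more. The interferon genes themselves were nearly silent. Of 14 interferon genes, 8 were listed at 0 in every library, none passed the filter, and the highest value of any was 4.60 TPM, in the library wild type 2. Gene models near-identical to Ifnz were not among the 14, and one of them, Gm13285, averaged 2.56 TPM and reached 5.25 TPM.

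**Figure D1:**
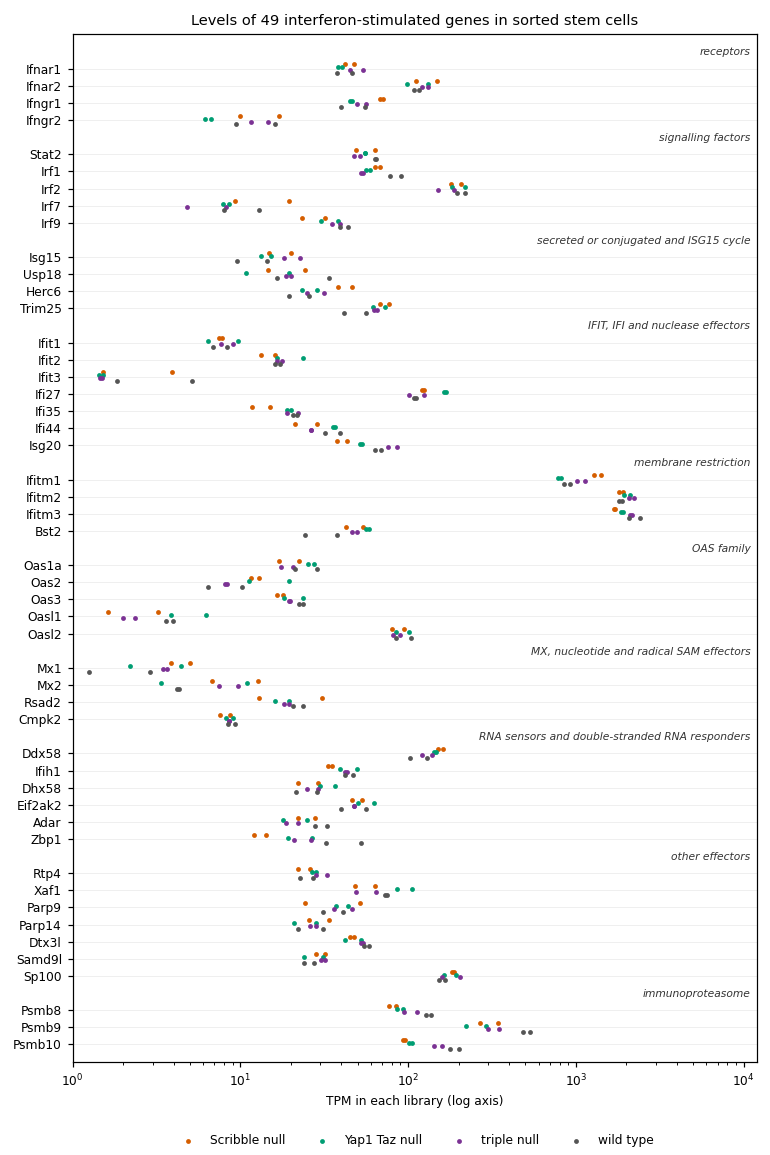
TPM of each of the 49 members on a log axis, grouped by role, with 1 point for each of the 8 libraries coloured by genotype. The 3 IFITM genes lie at 785 TPM or above in every library, and all 6 null points lie below both wild-type points for 7 members, the 3 immunoproteasome genes included, beside 4.87% of all genes tested.

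All 4 receptor genes were expressed. Ifnar2, the high-affinity chain of the type I receptor, stood at 149 and 111 TPM in Scribble null, 98.1 and 131 TPM in Yap1 Taz null, 131 and 121 TPM in triple null and 116 and 109 TPM in wild type libraries. Ifnar1, its partner chain, had 42.3 and 47.3 TPM in Scribble null, 40.2 and 38.2 TPM in Yap1 Taz null, 45.1 and 54.0 TPM in triple null and 37.6 and 46.2 TPM in wild type. Ifngr1, the ligand-binding chain of the type II receptor, had 70.8 and 67.6 TPM in Scribble null, 46.6 and 45.1 TPM in Yap1 Taz null, 49.8 and 56.0 TPM in triple null and 55.7 and 39.9 TPM in wild type. Only for Ifngr1 did the Scribble null libraries lie outside the wild-type range, and that difference did not pass the test (log2 0.54 ± 0.19 (SE), adjusted p = 0.192). Ifngr2, the signalling chain, was the lowest and most variable of the 4, with 6.71 and 6.17 TPM in Yap1 Taz null and 9.48 and 16.1 TPM in wild type (limma adjusted p = 0.318), and up to 17.0 TPM in Scribble null.

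Of the signalling factors, Irf2 was the most abundant. This factor, which competes with IRF1 for the same sites, had 181 and 205 TPM in Scribble null, 183 and 218 TPM in Yap1 Taz null, 151 and 189 TPM in triple null and 195 and 217 TPM in wild type. Irf1 had 68.3 and 63.1 TPM in Scribble null, 59.4 and 56.5 TPM in Yap1 Taz null, 53.6 and 52.5 TPM in triple null and 78.0 and 90.9 TPM in wild type. All 6 null libraries lay below both wild-type libraries for Irf1, yet no difference passed (limma adjusted p = 0.255 in Scribble null, 0.174 in Yap1 Taz null and 0.140 in triple null). Stat2, which carries the type I signal to the nucleus, had 49.2 and 63.3 TPM in Scribble null, 55.6 and 55.4 TPM in Yap1 Taz null, 51.9 and 47.9 TPM in triple null and 64.5 and 63.3 TPM in wild type. Irf9, its DNA-binding partner, ranged from 23.5 to 44.1 TPM, and Irf7, which amplifies the type I response, from 4.82 to 19.5 TPM.

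In the ISG15 cycle, levels were moderate. Trim25, a ubiquitin and ISG15 ligase that activates RIG-I, had 77.0 and 68.3 TPM in Scribble null, 62.1 and 72.7 TPM in Yap1 Taz null, 63.1 and 65.5 TPM in triple null and 41.7 and 56.1 TPM in wild type. Herc6, the main ligase for ISG15 in mice, had 38.0 and 46.6 TPM in Scribble null, 28.7 and 23.3 TPM in Yap1 Taz null, 31.6 and 25.0 TPM in triple null and 19.5 and 25.6 TPM in wild type. Usp18, which removes ISG15 and blocks the type I receptor, had 24.3 and 14.7 TPM in Scribble null, 19.4 and 10.8 TPM in Yap1 Taz null, 18.6 and 20.0 TPM in triple null and 33.7 and 16.6 TPM in wild type. Trim25 was above wild type in all 6 null libraries and Herc6 in both Scribble null libraries, while the wild-type replicates of Usp18 differed from each other by 2.03-fold and overlapped every null genotype. Isg15 itself, the ubiquitin-like modifier, ranged from 9.49 to 22.6 TPM.

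Among the IFIT, IFI and nuclease effectors, the classical response gene Ifit1 was low, between 6.43 and 9.72 TPM, and Ifit3 lower, between 1.43 and 5.13 TPM. Ifit3 has a near-identical copy, Ifit3b, so its share of reads is uncertain. Ifi27, a small protein of mitochondrial and nuclear membranes, was the highest of the group, with 124 and 120 TPM in Scribble null, 167 and 164 TPM in Yap1 Taz null, 124 and 101 TPM in triple null and 109 and 111 TPM in wild type. Isg20, an exonuclease that degrades single-stranded RNA, had 43.0 and 37.7 TPM in Scribble null, 52.0 and 52.8 TPM in Yap1 Taz null, 75.5 and 85.7 TPM in triple null and 63.9 and 69.1 TPM in wild type. The 4 genotypes did not overlap for Isg20, with Scribble null lowest and triple null highest. Ifi44, a GTP-binding antiviral protein, had 21.2 and 28.8 TPM in Scribble null, 36.5 and 35.8 TPM in Yap1 Taz null, 26.4 and 26.2 TPM in triple null and 32.2 and 39.2 TPM in wild type. Ifit2, an RNA-binding relative of Ifit1, and Ifi35 ranged from 13.3 to 23.6 TPM and from 11.8 to 22.2 TPM.

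The membrane restriction factors dominated the list. Ifitm3, which blocks fusion of viruses with the endosome, had 1684 and 1718 TPM in Scribble null, 1872 and 1913 TPM in Yap1 Taz null, 2177 and 2097 TPM in triple null and 2411 and 2070 TPM in wild type. Ifitm2, a close relative, had 1815 and 1925 TPM in Scribble null, 1945 and 2091 TPM in Yap1 Taz null, 2218 and 2073 TPM in triple null and 1799 and 1898 TPM in wild type. Ifitm1, which acts mainly at the cell surface, had 1278 and 1416 TPM in Scribble null, 814 and 785 TPM in Yap1 Taz null, 1128 and 1014 TPM in triple null and 928 and 847 TPM in wild type. Ifitm1 and Ifitm3 were thus ordered differently: Ifitm1 was highest and Ifitm3 lowest in the Scribble null libraries. Bst2, which encodes tetherin and holds budding virus at the surface, ranged from 24.3 TPM in wild type to 58.8 TPM in Yap1 Taz null, and both wild-type libraries lay below the 6 others.

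The OAS family makes 2-5A, which activates RNase L. Its most abundant member here was Oasl2, an OAS-like protein. Oasl2 had 79.7 and 94.5 TPM in Scribble null, 84.4 and 101 TPM in Yap1 Taz null, 89.0 and 81.3 TPM in triple null and 104 and 84.4 TPM in wild type, with every genotype overlapping. Oas1a had 17.1 and 22.4 TPM in Scribble null, 27.6 and 25.2 TPM in Yap1 Taz null, 17.5 and 20.5 TPM in triple null and 21.1 and 28.5 TPM in wild type. Its near-identical copy Oas1g averaged 16.5 TPM, so reads could be shared between the copies. Oas3 had 17.9 and 16.6 TPM in Scribble null, 23.8 and 18.3 TPM in Yap1 Taz null, 19.8 and 19.4 TPM in triple null and 22.4 and 23.6 TPM in wild type. Oas2 and Oasl1 were lower, between 6.38 and 19.5 TPM and between 1.62 and 6.26 TPM.

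Both MX genes were near the bottom of the list. Mx1, whose product is defective in C57BL/6 mice, ranged from 1.26 to 5.03 TPM. Mx2, annotated as a polymorphic pseudogene, had 12.8 and 6.74 TPM in Scribble null, 10.9 and 3.39 TPM in Yap1 Taz null, 7.45 and 9.64 TPM in triple null and 4.17 and 4.32 TPM in wild type. Replicates of Mx2 differed by up to 3.21-fold. Rsad2, which encodes viperin, had 30.8 and 13.0 TPM in Scribble null, 19.5 and 16.1 TPM in Yap1 Taz null, 18.2 and 19.6 TPM in triple null and 23.5 and 20.6 TPM in wild type. Its neighbour Cmpk2, a nucleotide kinase, had 7.59 and 8.64 TPM in Scribble null, 9.07 and 8.19 TPM in Yap1 Taz null, 8.55 and 8.61 TPM in triple null and 8.40 and 9.31 TPM in wild type, the narrowest range of all members.

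Sensors of double-stranded RNA, which polyI:C resembles, were well expressed. Ddx58, which encodes RIG-I, had 162 and 151 TPM in Scribble null, 147 and 144 TPM in Yap1 Taz null, 139 and 120 TPM in triple null and 102 and 129 TPM in wild type. Ifih1, which encodes MDA5, the main cytosolic sensor of polyI:C, had 33.2 and 35.4 TPM in Scribble null, 39.3 and 49.9 TPM in Yap1 Taz null, 42.0 and 43.0 TPM in triple null and 42.1 and 47.0 TPM in wild type. Eif2ak2, the kinase PKR, which halts translation, had 46.6 and 53.5 TPM in Scribble null, 50.1 and 62.7 TPM in Yap1 Taz null, 47.8 and 47.3 TPM in triple null and 39.9 and 56.2 TPM in wild type. For Eif2ak2 every null genotype overlapped wild type. Zbp1, a sensor of Z-form nucleic acid that can start necroptosis, had 12.1 and 14.2 TPM in Scribble null, 19.1 and 26.7 TPM in Yap1 Taz null, 26.3 and 20.9 TPM in triple null and 52.4 and 32.3 TPM in wild type. Both wild-type libraries lay above all 6 others for Zbp1, and they differed from each other by 1.62-fold. Dhx58, which encodes LGP2, ranged from 21.5 to 36.9 TPM, and Adar, which edits double-stranded RNA, from 17.9 to 32.9 TPM.

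Other effectors included Sp100, a component of nuclear bodies, with 188 and 182 TPM in Scribble null, 194 and 164 TPM in Yap1 Taz null, 159 and 204 TPM in triple null and 152 and 165 TPM in wild type. Xaf1, which opposes the apoptosis inhibitor XIAP, had 48.3 and 63.8 TPM in Scribble null, 85.5 and 105 TPM in Yap1 Taz null, 48.6 and 64.2 TPM in triple null and 74.5 and 73.0 TPM in wild type. The Yap1 Taz null libraries of Xaf1 lay above wild type, and the other null libraries below. Dtx3l, a ubiquitin ligase that pairs with PARP9, had 47.7 and 44.9 TPM in Scribble null, 41.9 and 52.3 TPM in Yap1 Taz null, 54.0 and 52.3 TPM in triple null and 58.4 and 54.7 TPM in wild type. Rtp4, Parp9, Parp14 and Samd9l lay between 21.0 and 51.5 TPM in all libraries.

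The immunoproteasome subunits replace the constitutive catalytic subunits and change which peptides reach MHC class I. Psmb9 had 344 and 267 TPM in Scribble null, 292 and 223 TPM in Yap1 Taz null, 351 and 301 TPM in triple null and 534 and 484 TPM in wild type. Psmb10 had 93.3 and 95.6 TPM in Scribble null, 105 and 102 TPM in Yap1 Taz null, 159 and 142 TPM in triple null and 200 and 179 TPM in wild type. Psmb8 had 76.7 and 85.0 TPM in Scribble null, 92.9 and 86.4 TPM in Yap1 Taz null, 94.9 and 112 TPM in triple null and 137 and 129 TPM in wild type. For all 3 genes both wild-type libraries lay above all 6 null libraries. Their summed level was 480 ± 46.7 TPM in Scribble null, 451 ± 56.1 TPM in Yap1 Taz null, 580 ± 34.8 TPM in triple null and 831 ± 56.4 TPM in wild type (SD, n = 2 each). Of all 10 role groups, the signalling factors were the only other one summed below wild type in all 6 null libraries, at 301 to 376 TPM in null and 389 and 424 TPM in wild type libraries, and the ISG15 cycle was summed above it. Gene by gene, 7 members lay below both wild-type libraries in all 6 null libraries (Irf1, Irf9, Zbp1, Dtx3l, Psmb8, Psmb9 and Psmb10), beside 4.87% of all genes tested, and 2 lay above (Trim25 and Bst2), beside 13.1% of all genes.

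Scribble null was compared with wild type first, to ask how loss of the polarity scaffold goes with these genes. Psmb10 was 1.99-fold lower, with a mean of 94.4 ± 1.60 TPM in Scribble null and 189 ± 15.1 TPM in wild type. Zbp1 averaged 13.1 ± 1.46 TPM in Scribble null and 42.3 ± 14.2 TPM in wild type. Ifitm1 was higher, at 1347 ± 97.6 TPM in Scribble null and 888 ± 57.0 TPM in wild type (SD, n = 2 each). On the log2(TPM + 1) scale, which understates changes of low genes, Psmb10 (chr8:105935735-105938444) fell by 0.99 ± 0.13 (adjusted p = 0.0122), Zbp1 (chr2:173206612-173218923) fell by 1.58 ± 0.28 (adjusted p = 0.0443) and Ifitm1 (chr7:140967221-140969825) rose by 0.60 ± 0.11 (adjusted p = 0.0467; SE, limma with Benjamini-Hochberg adjustment over all genes). These coordinates are of whole genes in GENCODE M21 on build GRCm38, equal to mm10. In bulk RNA, fewer cells of a type and less RNA per cell cannot be told apart.

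Those 3 were the only members of 49 called in that comparison, 1 higher and 2 lower, beside 1.3% of all genes tested, or 0.591% higher and 0.71% lower. At an unadjusted p under 0.05 there were 16 members, beside 18.2% of all genes. Libraries did not overlap for 29 members, 13 higher and 16 lower, beside 48.9% of all genes, or 33.2% higher and 15.7% lower. The median log2 difference over the members was -0.09, against 0.14 over all genes, with 22 members above 0 and 27 below. With median-ratio scaling the median over all genes was 0.01 and over members -0.25, with 15 members above 0 and 34 below. The calls were then 0 higher and 4 lower, and Ifitm1 stood at 0.44 with adjusted p = 0.120. By role, immunoproteasome members were 1 lower of 3, membrane factors 1 higher of 4 and RNA sensors 1 lower of 6, and no receptor, signalling, ISG15, IFIT, OAS, MX or other effector gene passed. Psmb8 (log2 -0.71 ± 0.14, adjusted p = 0.0636), Isg20 (-0.71 ± 0.15, adjusted p = 0.0768) and Psmb9 (-0.75 ± 0.18, adjusted p = 0.0954) were next. For 32 of the 49 members the 95% interval of the difference lay within 2-fold either way, and for the other 17, which include the called Psmb10 and Zbp1, it reached further. Without either wild-type library, or without the library Scribble null 1, none of the 3 was called, and leaving out any other single library left Psmb10 alone. Without both Yap1 Taz null libraries Psmb10 was also called alone.

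**Figure D2:**
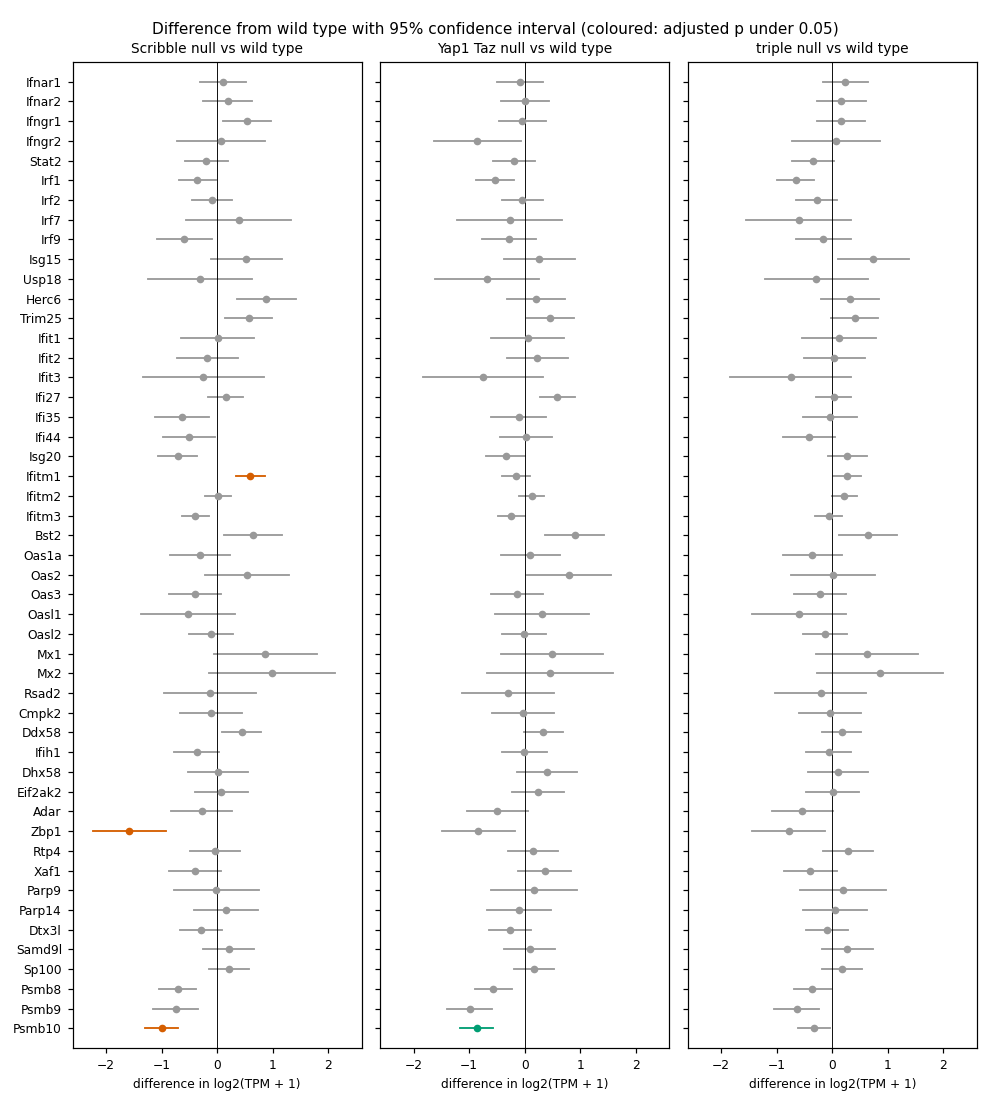
Difference from wild type in log2(TPM + 1) for each member, in Scribble null, Yap1 Taz null and triple null, with 95% confidence intervals from limma and colour where the adjusted p was under 0.05. Psmb10, Zbp1 and Ifitm1 are coloured in Scribble null, Psmb10 in Yap1 Taz null, and none in triple null.

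Yap1 Taz null cells showed 1 called member, in libraries that also had low Y-linked levels. Psmb10 averaged 103 ± 2.42 TPM in Yap1 Taz null and 189 ± 15.1 TPM in wild type (SD, n = 2 each), a log2 difference of -0.87 ± 0.13 (SE, limma adjusted p = 0.0234). Psmb9 came next at -0.99 ± 0.18 with adjusted p = 0.0523, then Ifi27 at 0.59 ± 0.14 with adjusted p = 0.120. Bst2 was at 0.90 ± 0.23 with adjusted p = 0.152, and Psmb8 at -0.56 ± 0.14 with the same adjusted p. That is 0 members higher and 1 lower of 49, beside 0.99% of all genes called, or 0.473% higher and 0.517% lower. At an unadjusted p under 0.05 there were 10 members, beside 14.3% of genes, and 24 members did not overlap wild type, 8 higher and 16 lower, beside 46.6% of genes, or 32% higher and 14.5% lower. The median over members was -0.02, against 0.14 over all genes, and -0.18 with median-ratio scaling, where all genes had 0.00, and 35 of 49 intervals lay within 2-fold. Psmb10 was not called without either wild-type, either Yap1 Taz null or either triple null library, and it was called together with Psmb9 without either Scribble null library. With median-ratio scaling Psmb10 was at -1.03 with adjusted p = 0.0148.

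In triple null cells no member was called against wild type with limma, beside 0.579% of all genes, or 0.224% higher and 0.355% lower. At an unadjusted p under 0.05 there were 8 members, beside 10.9% of genes. Irf1 had the smallest adjusted p, 0.140, at a log2 difference of -0.66 ± 0.15, with 53.0 ± 0.803 TPM in triple null and 84.4 ± 9.13 TPM in wild type (SD, n = 2 each). Psmb9 followed at -0.64 ± 0.18 (adjusted p = 0.236). Psmb10 stood at 151 ± 12.3 TPM in triple null and 189 ± 15.1 TPM in wild type, a difference of -0.33 ± 0.13. The median over members was 0.01, against 0.12 over all genes, and -0.13 with median-ratio scaling, which put the median of all genes at 0.00. Libraries did not overlap for 28 members, 11 higher and 17 lower, beside 45.1% of genes, or 30.9% higher and 14.2% lower, and 37 of 49 intervals lay within 2-fold. The 3 comparisons share the wild-type libraries, so they are not independent of each other.

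**Figure D3:**
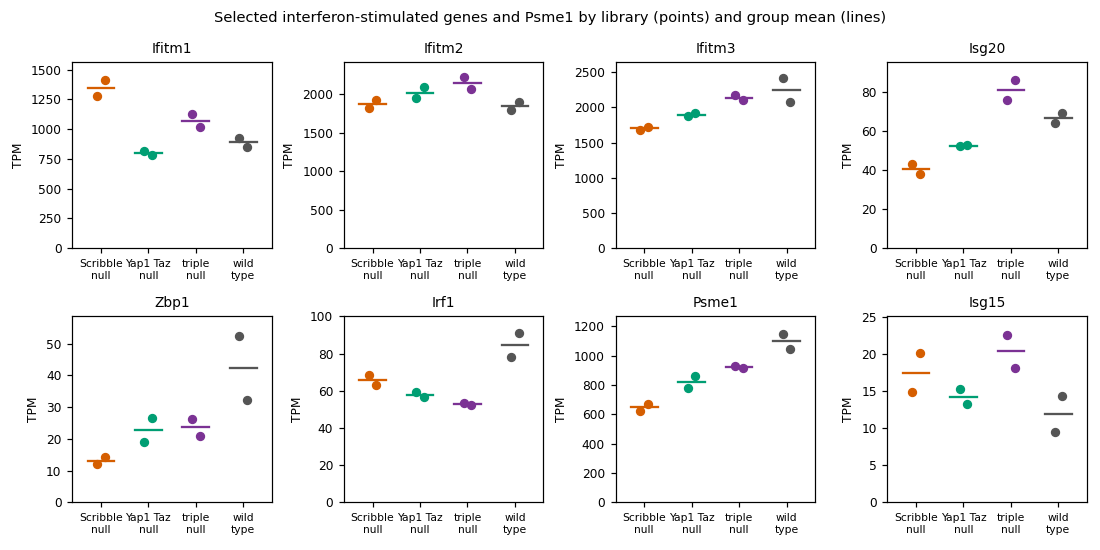
TPM of Ifitm1, Ifitm2, Ifitm3, Isg20, Zbp1, Irf1, Psme1 and Isg15 in each library (points) with group means (lines), axes starting at 0. Ifitm1 is highest and Isg20 lowest in Scribble null, and both wild-type points lie above all others for Zbp1, Irf1 and Psme1.

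Differences among the null genotypes were few. Between triple null and Scribble null no member was called with limma, beside 0.212% of all genes, or 0.112% higher and 0.0996% lower, and 9 members had an unadjusted p under 0.05, beside 9.15% of genes. Isg20 came closest, with 80.6 ± 7.16 TPM in triple null and 40.3 ± 3.73 TPM in Scribble null (SD, n = 2 each), a log2 difference of 0.98 ± 0.15 and adjusted p = 0.0678. Psmb10 was 0.67 ± 0.13 higher with adjusted p = 0.146. Libraries did not overlap for 23 members, 13 higher and 10 lower, beside 40.1% of genes, or 19% higher and 21.1% lower. Between triple null and Yap1 Taz null no member was called with limma either, beside 0.181% of all genes, or 0.0685% higher and 0.112% lower, and 8 had an unadjusted p under 0.05, beside 8.41% of genes. The smallest adjusted p was that of Psmb10, 0.248, at 0.54 ± 0.13. Here too 23 members did not overlap, 11 higher and 12 lower, beside 40% of genes, or 18.7% higher and 21.3% lower.

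Ifitm1 was the 1 member that differed between Scribble null and Yap1 Taz null, with 1347 ± 97.6 TPM in Scribble null and 800 ± 20.6 TPM in Yap1 Taz null (SD, n = 2 each). The log2 difference was 0.75 ± 0.11 (SE, limma adjusted p = 0.0470), and it was lost when any single library was left out. This is 1 of 49 members, and higher, beside 0.286% of all genes, or 0.112% higher and 0.174% lower, with 10 members at an unadjusted p under 0.05, beside 10.4% of genes. Ifitm2 and Ifitm3 stood at -0.11 ± 0.10 and -0.15 ± 0.10 in the same comparison and did not pass. Libraries did not overlap for 27 members, 9 higher and 18 lower, beside 38.8% of genes, or 19% higher and 19.8% lower. Ifitm1 has a near-identical gene model, Gm7676, which averaged 1.32 TPM, and summing the pair left the difference at 0.75 with adjusted p = 0.0472.

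Genes outside the members were examined through further lists. Of 39 other interferon-induced genes 36 were tested. Slfn8, a member of the Schlafen family, had 38.7 and 40.1 TPM in Scribble null and 18.3 and 19.1 TPM in wild type, and rose by 1.03 ± 0.17 (adjusted p = 0.0346). Apobec3, a cytidine deaminase that restricts retroviruses, had 248 and 299 TPM in Yap1 Taz null and 139 and 166 TPM in wild type, and rose by 0.84 ± 0.14 (adjusted p = 0.0446). These were 1 of 36 called in each of those comparisons, beside 1.3% of all genes in Scribble null and 0.99% in Yap1 Taz null. None of the 36 was called in triple null against wild type, beside 0.579% of all genes. There 6 had an unadjusted p under 0.05, beside 10.9% of all genes. In Scribble null and in Yap1 Taz null 9 of the 36 had such a p, beside 18.2% and 14.3% of all genes. Both calls were lost when any single library was left out. The medians over the 36 were 0.01 in Scribble null, 0.07 in Yap1 Taz null and 0.01 in triple null, each against wild type.

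Immunoproteasome genes were then set beside the rest of the proteasome. The activator subunit Psme1, which caps the proteasome and is itself interferon-induced, had 626 and 670 TPM in Scribble null and 1149 and 1045 TPM in wild type, and fell by 0.76 ± 0.11 on the log2 scale (adjusted p = 0.0203). That call was lost without the library Scribble null 1, either triple null or either wild-type library. In Yap1 Taz null it had 779 and 863 TPM and in triple null 928 and 912 TPM, all below wild type, with no call. Of the 14 constitutive subunits none was called in any of the 7 comparisons, and all 14 were below 0 in each comparison with wild type, with medians of -0.33 in Scribble null, -0.32 in Yap1 Taz null and -0.33 in triple null, against 0.14, 0.14 and 0.12 over all genes. With limma, an unadjusted p under 0.05 was reached by 6, 5 and 5 of the 14 in those comparisons, beside 18.2%, 14.3% and 10.9% of all genes. All 14 were below 0 also with median-ratio scaling and with quantile normalization, and median-ratio scaling called 1 of the 14 in each comparison.

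Each immunoproteasome gene was divided by the constitutive subunit it replaces. Psmb8 over Psmb5 was 0.952 and 1.09 in Scribble null, 1.35 and 1.24 in Yap1 Taz null, 2.00 and 1.92 in triple null and 1.48 and 1.32 in wild type. Psmb9 over Psmb6 was 2.44 and 2.20 in Scribble null, 2.36 and 1.60 in Yap1 Taz null, 2.07 and 2.35 in triple null and 3.56 and 2.94 in wild type. Psmb10 over Psmb7 was 1.25 and 1.51 in Scribble null, 1.41 and 1.28 in Yap1 Taz null, 2.36 and 2.11 in triple null and 2.04 and 2.21 in wild type. The pairs therefore differed: triple null libraries overlapped wild type for Psmb10 over Psmb7, lay above it for Psmb8 over Psmb5 and lay below it for Psmb9 over Psmb6. The mean log2 ratio over the 3 pairs was 0.57 ± 0.07 in Scribble null, 0.59 ± 0.19 in Yap1 Taz null, 1.09 ± 0.01 in triple null and 1.09 ± 0.08 in wild type (SD, n = 2 each). No test was made of this ratio. In triple null the constitutive genes were also lower than in wild type. Psmb5 averaged 53.0 TPM against 94.9 TPM in wild type, Psmb6 149 against 157 TPM and Psmb7 67.6 against 89.6 TPM. An equal mean ratio is therefore not an equal level, since the 3 immunoproteasome genes were below wild type in triple null as well. Psmb5 has a near-identical gene model, Gm3375, at a mean of 15.0 TPM, which makes its ratio the least certain.

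**Figure D4:**
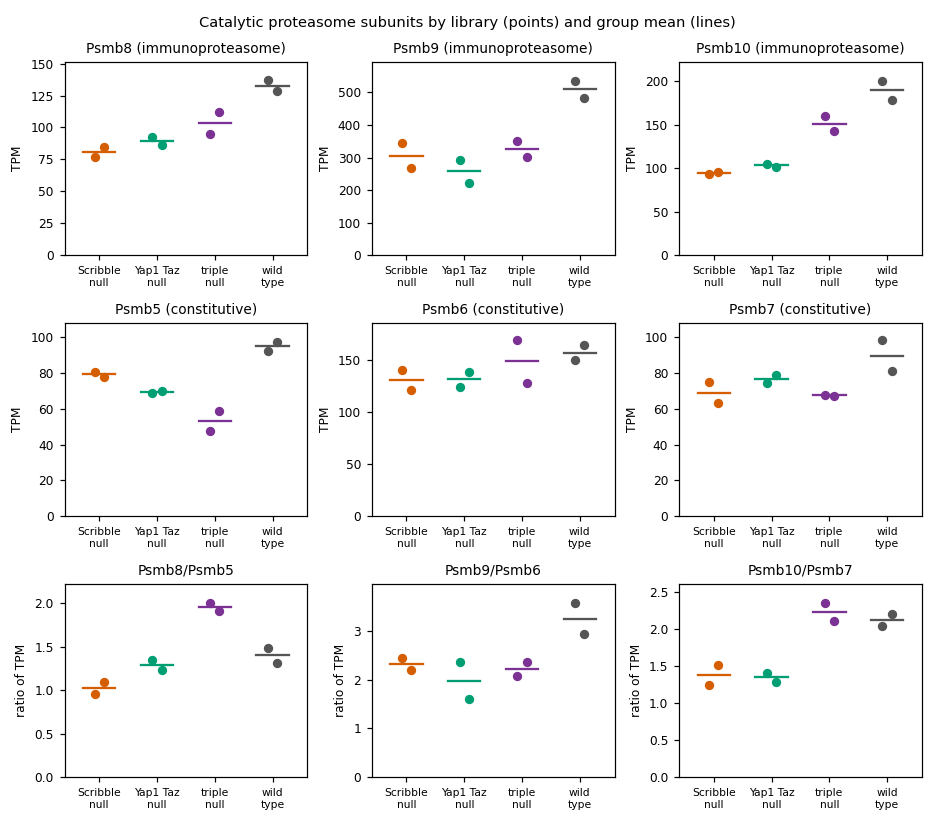
TPM of the immunoproteasome genes Psmb8, Psmb9 and Psmb10 (top), of their constitutive counterparts Psmb5, Psmb6 and Psmb7 (middle), and the ratio of each pair (bottom), in each library (points) with group means (lines). Both wild-type points lie above all 6 null points for the immunoproteasome genes, while the triple null ratios lie above, below and among the wild-type ratios for the 3 pairs.

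Markers of other cell types were read beside these results. Of 8 T and NK cell markers, Ncr1 and Gzma were listed at 0 in every library and 5 were under 1 TPM in every library. The summed level of the list was 109 and 125 TPM in Scribble null, 84.0 and 69.3 TPM in Yap1 Taz null, 122 and 110 TPM in triple null and 162 and 147 TPM in wild type, most of it from Nkg7. The sum was highest in wild type, as the immunoproteasome genes were, and its part in that result was not tested. Other markers of the list, named after their values were seen, ran the other way: Klrb1c had 30.9 and 15.0 TPM in Scribble null and 0.659 and 3.24 TPM in wild type, and Cd3d had 11.2 and 11.1 TPM in Scribble null and 7.72 and 5.05 TPM in wild type. Of 10 markers of monocytes, macrophages and dendritic cells 7 were under 1 TPM in all libraries, and the sum ranged from 198 to 314 TPM, most of it from Lyz2. The sum over 9 granulocyte markers did not exceed 5.22 TPM. Of 7 plasmacytoid dendritic cell markers, Cox6a2 and Klk1 were listed at 0 throughout, and Siglech did not exceed 1.96 TPM. The sum, most of it from Tcf4 and the member Bst2, was 191 and 157 TPM in Scribble null, 148 and 171 TPM in Yap1 Taz null, 161 and 138 TPM in triple null and 101 and 128 TPM in wild type.

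The departure from additivity asks whether the change with Scribble loss was the same with and without Yap1 and Taz. The Yap1 Taz null libraries, with their low Y-linked levels, enter this departure. It is the log2 difference of triple null from Yap1 Taz null minus that of Scribble null from wild type, and it was called for 2 of 49 members, both positive, beside 0.635% of all genes, or 0.374% positive and 0.261% negative. Psmb10 had a departure of 1.53 ± 0.18 (SE, limma adjusted p = 0.00997), made of 0.54 for triple null against Yap1 Taz null and -0.99 for Scribble null against wild type. Isg20 (chr7:78913424-78920396) had a departure of 1.32 ± 0.21 (adjusted p = 0.0457), made of 0.61 and -0.71. At an unadjusted p under 0.05 there were 14 members, beside 14.5% of genes, and the median over members was 0.04, against -0.15 over all genes. Psmb8 at 0.91 ± 0.20 (adjusted p = 0.113), Psmb9 at 1.09 ± 0.25 (adjusted p = 0.125) and Zbp1 at 1.63 ± 0.40 (adjusted p = 0.147) did not pass. The Isg20 call was lost when any single library was left out, and that of Psmb10 without either Yap1 Taz null library, triple null 1 or wild type 1, with adjusted p from 0.0504 to 0.0712.

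Outside the members, Psme1 had a departure of 0.92 ± 0.15 (SE, limma adjusted p = 0.0460), made of 0.17 for triple null against Yap1 Taz null and -0.76 for Scribble null against wild type. It was called without the library Scribble null 2 and lost when any other single library was left out. Of the 36 other interferon-induced genes and the 14 constitutive proteasome genes none was called with limma, beside 0.635% of all genes. An unadjusted p under 0.05 was reached by 7 and 4 of them, beside 14.5% of all genes. The 3 IFITM genes did not pass, at -0.18 for Ifitm1, 0.07 for Ifitm2 and 0.57 for Ifitm3.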

How the data were processed

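Per the labels' protocols, RNA of sorted stem cells was isolated with RNeasy, cDNA was amplified by Ovation RNA-Seq v2 and Nextera XT was used for the libraries. The authors deposited 1 table of TPM per library, per the file headers, with 33641 symbols in each. TopHat and the build mm10 appear in the submitters' processing notes. For the quantifier, its annotation and reads shared by near-identical genes, the method is not given in the sources used here. One table of the whole series, also deposited, holds a signal in an unnamed unit for 28987 identifiers, of which 27458 matched a symbol, and 48 of the 49 members. It served only as an alternative.

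The test was limma (3.58.1, R 4.3.3) with a mean-variance trend on log2(TPM + 1), fitted to all 8 libraries with 4 group means, for 16064 genes at 1 TPM or more in at least 2 libraries. P-values were adjusted over all of these by Benjamini-Hochberg, with a threshold of 0.05, in 7 comparisons. The fit was also run on simulated data with independent noise, whose outcome is not given here. Such data hold no batch or pooling, so they cannot speak to either in these libraries. TPM keeps no depth, so no counting interval can be given, and 2 libraries per group limit the precision. Near-identical genes were found with BLAST 2.17.0, at 95% identity over 80% of the length. Coordinates are of GENCODE M21 (GRCm38) and promoters of RefSeq (GRCm38.p6).

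The members and gene lists were chosen with earlier results of these data known. Values of every library are given for members called in any comparison and for the 3 most abundant of each role, and other members are given by ranges. Genes outside the members are named if called, or as the constitutive counterparts Psmb5, Psmb6 and Psmb7. The list of other interferon pathway genes is not reported here. Alternatives were other pseudocounts (0.1 and 5), filters, scalings, no trend, only the libraries compared, the table of the whole series, a replicate block and each library left out.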

Additional observations from a re-analysis of the deposited data

Results flagged for a closer look

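For 3 of the genes reported here the change that went with Scribble loss differed between cells with and without Yap1 and Taz, by the test of that difference itself (limma, adjusted over all genes). Psmb10 had a difference of 1.53 on the log2 scale (adjusted p = 0.00997), from 0.54 between triple null and Yap1 Taz null and -0.99 between Scribble null and wild type. Isg20 had 1.32 (adjusted p = 0.0457), from 0.61 and -0.71 in the same comparisons. Psme1 had 0.92 (adjusted p = 0.0460), from 0.17 and -0.76. Only Psmb10 and Isg20 are members of the list, and a departure of this kind was called for 0.635% of all genes tested. Of 17 recomputations, the call was lost in 6 for Psmb10, 13 for Isg20 and 12 for Psme1, with the direction kept in all. The Yap1 Taz null libraries, with their low Y-linked levels, enter each of these differences, and what sets those levels cannot be told apart from the genotype.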

How the results depend on the processing

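No named gene that was called changed direction under any alternative, while the median over members moved beyond the spread between libraries in 11 of its recomputations. The mean log2 ratio of immunoproteasome to constitutive subunits, triple null minus wild type, was 0.00 and moved to 0.06 in the table of the whole series, where Psmb9 was not matched. The 17 other recomputations of this ratio, over the 3 comparisons with wild type, moved less than the spread between replicates. Of the recomputed values of named genes, 1145 kept their side of the threshold, 128 lost it and 7 gained it. Most of the 1145 were called neither in the main fit nor in the alternative, so they do not measure how stable the calls were. All 128 losses were of called results, and each of these was lost in 6 to 16 of its 17 to 20 recomputations. The members called in Scribble null against wild type were 3, and numbered 1 with a pseudocount of 5, with no filter and without both Yap1 Taz null libraries (an alternative chosen after seeing the data), and 0 with no trend, with only the libraries compared and with the table of the whole series. All genes called there were 209, and numbered 127 with no filter, 100 with no trend, 50 with only the libraries compared, 101 in the table of the whole series and 111 without both Yap1 Taz null libraries. In Yap1 Taz null against wild type the 1 member became 2 with a filter of mean 5 TPM and 0 with no trend, with only the libraries compared and in the table of the whole series. All genes there were 56 with only the libraries compared and 105 in that table. With only the libraries compared, all genes called were 58 in triple null against wild type, 11 in triple null against Scribble null, 6 in triple null against Yap1 Taz null and 12 in Scribble null against Yap1 Taz null. In the table of the whole series they were 20 in triple null against Scribble null and 15 in triple null against Yap1 Taz null, and with no filter 17 in the last of these. The member called in Scribble null against Yap1 Taz null was lost, leaving 0, with a pseudocount of 5, no filter, median-ratio scaling, no trend, only the libraries compared and the table of the whole series. For the departure from additivity, members called were 1 with a pseudocount of 0.1 and with no filter, and 0 with no trend and in the table of the whole series, and all genes called were 62 with no trend. The cause of these changes was not tested. Where only the libraries compared were used, fewer libraries entered the fit.

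Scaling moved the balance of calls. With median-ratio scaling all genes called were 58 higher and 199 lower in Scribble null, against 95 and 114 as deposited, 39 and 96 in Yap1 Taz null, against 76 and 83, and 25 and 67 in triple null, against 36 and 57, each compared with wild type. Quantile normalization gave 79 higher and 130 lower in Scribble null and 53 and 94 in Yap1 Taz null.

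The replicate block was fitted although same-numbered libraries did not deviate together (correlations from -0.05 to 0.03). That cannot decide whether the Exp numbers in the sample titles mark pairs. With the block, members called were 1 in Scribble null against wild type, 2 in Yap1 Taz null against wild type, 0 in Scribble null against Yap1 Taz null and 1 for the departure from additivity. All genes called were 110 in Scribble null against wild type and 14 in triple null against Yap1 Taz null. For the other comparisons the number of all genes called with the block is not given here, so their member counts cannot be read against it.

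With 1 library left out, its group keeps 1 library, which is assumed to vary like the others. Members called then ranged from 0 to 1 in Scribble null against wild type, 0 to 2 in Yap1 Taz null against wild type and 0 to 1 for the departure, and were 0 throughout in the other comparisons. All genes called ranged from 47 to 221 and 53 to 134 in the first and second of these, 39 to 85 in triple null against wild type, 19 to 61 in triple null against Scribble null, 9 to 21 in triple null against Yap1 Taz null, 23 to 59 in Scribble null against Yap1 Taz null and 44 to 128 for the departure. With 2 libraries per genotype, small differences could not be detected.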

Other observations

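Ly6a, which encodes the stem cell marker Sca-1 and is known to be induced by interferon, was among the stem cell markers and was singled out after its values were seen. It stood at 148 and 231 TPM in Scribble null, 176 and 201 TPM in Yap1 Taz null, 223 and 255 TPM in triple null and 359 and 417 TPM in wild type libraries. Both wild-type libraries lay above all 6 others, and replicates differed by up to 1.57-fold.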
